A study of Homo sapiens with 4 samples.

Results

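The SMAD genes encode the intracellular mediators of transforming growth factor beta (TGF-β) and bone morphogenetic protein (BMP) signaling. All 8 human members (SMAD1, SMAD2, SMAD3, SMAD4, SMAD5, SMAD6, SMAD7 and SMAD9) were looked up in a list of N6-methyladenosine (m6A) peaks from MDA-MB-231 cells, an established triple negative breast cancer line. The members were chosen by gene symbol and not by a measured value, though earlier results of these data were known. Of the 8 genes, 6 were in the list, with 17 of its 20261 peaks and among 10140 gene IDs. SMAD4 and SMAD5 had no peak. For m6A-seq the study made 4 libraries from poly(A) RNA of cells labelled shNS, its name for the control hairpin RNA. Of these, 2 were of input RNA and 2 of RNA immunoprecipitated (IP) with an anti-m6A antibody. A treatment label of the IP libraries names YTHDC1 instead, but their titles and protocol describe the m6A antibody, and that reading was used. No other genotype, drug or time was part of the design of these 4 libraries, which came from 1 cell line.

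Receptor-activated SMADs are phosphorylated by the type I receptors, SMAD2 and SMAD3 after TGF-β or activin and SMAD1, SMAD5 and SMAD9 after BMPs. They then join SMAD4, the shared partner, and enter the nucleus to regulate transcription. SMAD6 and SMAD7 are induced by the pathway and inhibit it, SMAD6 mainly on the BMP branch and SMAD7 on both. m6A is an internal modification of mRNA that is written mostly in the sequence context RRACH, which is a pair of purines followed by A, C and then A, C or T. It is read by proteins such as YTHDC1, a nuclear reader that takes part in splicing and mRNA export. In breast cancer cells the TGF-β branch promotes the epithelial to mesenchymal transition. The study asked what role YTHDC1 has in metastasis of triple negative breast cancer, and identified SMAD3 RNA as a target.

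The peak list held 1 score per peak for all libraries together, taken here as the p-value that the authors' peak caller gave for enrichment over input, so that a smaller score is a stronger peak. Whether it is a p-value or a false discovery rate is not stated in the file. Scores are given below as −log10 or as deposited. The list holds no read count, no fold enrichment and no value of a single library. Depth is therefore unknown, the identity of the cells could not be checked by marker expression, no spread between replicates could be computed, and every comparison below is a description of 1 list with no test. A score rises with the number of reads on a transcript as well as with its enrichment, and is no measure of the methylated fraction. Because plus-strand genes scored weaker throughout the list (median score 1.4e-05 over 5613 peaks, against 3.2e-10 over 14648 minus-strand peaks), each SMAD gene was set beside genes of its own strand.

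Where a SMAD peak began at or near a transcription start, part of its sequence could be read from the RefSeq promoter table (GRCh38.p14), which held starts for all 8 genes. This applied to 4 peaks of SMAD1, SMAD3 and SMAD6 that lay over an annotated start. The table also held the 3 bases of SMAD7 peak 1 nearest the start, which are too few for the motif. A stretch of 30 reference bases from each is printed 5′ to 3′ with RRACH in capitals. The SMAD3, SMAD6 and first SMAD1 stretches begin at the RefSeq start, and the other SMAD1 stretch ends with the last base of its peak.
SMAD3 peak 1, chr15:67065602-67065631, plus strand: gAAACAcAGACTgggagcgggcgggagcgg
SMAD6 peak 1, chr15:66702236-66702265, plus strand: atatgatgggaggcagccaatgactccgcg
SMAD1 peak 1, chr4:145481853-145481882, plus strand: agatcaatccaggctccaggagaaagcagg
SMAD1 peak 2, chr4:145482817-145482846, plus strand: attcgtgagttcgcggttGAACAactgttc
SMAD3 had 2 RRACH sites at its start, and the methylatable A of these sites was base 4 and base 10, counted from 1 at the RefSeq start. In SMAD3 and in SMAD1, peak 1 also had a block upstream of the RefSeq start used here. That start is therefore an inner block border of the peak, and need not be the 5′ end of the transcript. SMAD1 peak 2 was covered whole by the promoter table and held 1 RRACH site in its 61 bases, whereas the first 50 transcribed bases of SMAD6 and of the SMAD1 start under peak 1 held none. Among 34943 RefSeq starts in the table, 40.8% had at least 1 RRACH in their first 50 transcribed bases on the sense strand. A match is a description of the reference letters and not a methylated site. The antibody also binds the N6-methylated first base that follows the cap of many mRNAs, so a peak over a start does not separate internal from cap-adjacent methylation. The first base of the RefSeq transcript was A for SMAD6 and for the SMAD1 start under peak 1, G for SMAD3 and C for the SMAD1 start under peak 2, and it was A for 44.4% of all starts.

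Across the family, a peak was listed for 3 of 5 plus-strand genes (SMAD1, SMAD3 and SMAD6) and for all 3 minus-strand genes (SMAD2, SMAD7 and SMAD9). Of annotated coding genes whose strand was known, 29.3% of plus-strand ones and 55.6% of minus-strand ones had a peak, and 40.8% of all 20056 coding genes did. These shares include genes that the cells may not express, since the list carries no expression value. The 17 peaks covered 5468 spliced bases, from 61 to 780 bases each with a median of 270. Of the 17 peaks 4 ran over 2 blocks, which were both SMAD2 peaks and the first peaks of SMAD3 and SMAD1. This was 2 of 10 plus-strand and 2 of 7 minus-strand SMAD peaks, against 15.4% and 18.8% of all peaks of those strands. In 16 of 17 the length fitted a grid of 30 bases (exactly, or with 1 base over), as it did in 77.8% of the whole list. Borders of SMAD peaks are therefore not resolved to single bases, and a border at an annotated start is no measurement of that start.

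**Figure D1:**
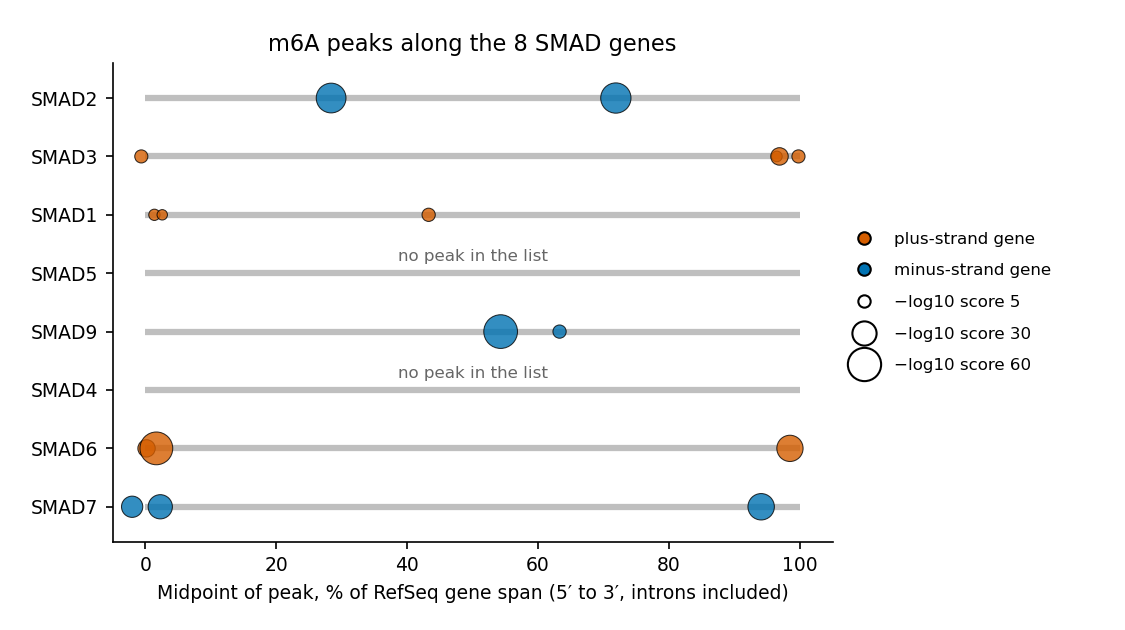
Midpoint of each of the 17 peaks (points) along the RefSeq span of the 8 SMAD genes (grey bars), in percent from the 5′ to the 3′ end with introns included; point area grows with −log10 score and color gives the strand. Peaks of SMAD6 and SMAD7 sat at both ends of the gene and those of SMAD2 and SMAD9 in between, and the 61-base SMAD3 peak at 96.5% is largely hidden by the one at 96.9%.

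The positions fell into different patterns within the family. SMAD6 and SMAD7, the inhibitory members, and SMAD3 each had peaks at the 5′ end and near the 3′ end of the gene, with a long stretch between them that held no peak. SMAD1 had 2 peaks near its 5′ end and 1 near the middle of the span. SMAD2 and SMAD9 had peaks only in the inner part of the span, from 28.4% to 71.9% of it. Span positions count introns, and the exon, coding or UTR position of a block was not analysed here.

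SMAD3, which transmits the TGF-β signal and binds DNA directly, had 4 peaks (ENSG00000166949.16, chromosome 15, plus strand). Peak 1 (score 7.4e-07) had a block of 209 bases that began at the RefSeq start of SMAD3, 67065602, and ended at 67065810. Its other block, 32 bases from 67063913 to 67063944, lay outside the RefSeq span, at positions -1689 to -1658 counted from that start. This block fell within SMAD3-DT, a long non-coding RNA gene of the opposite strand, 238 to 269 bases from the start of that gene, and SMAD3-DT had no peak of its own. The remaining peaks lay between 125037 and 129447 bases into the gene. Peak 2 (67190639 to 67190699) was the weakest, with a score of 0.0015 over 61 bases. Peak 3 (67190999 to 67191269) was the strongest, with a score of 1.3e-14 over 271 bases. Peak 4 (67194869 to 67195049) had a score of 6e-07 over 181 bases and ended 120 bases before the end of the span. Peaks 2 and 3 were separated by 299 bases and peaks 3 and 4 by 3599 bases, and the distances between their first bases, 360 and 3870, were both whole multiples of the 30-base step. None of the other 9 distances between neighboring peaks of a SMAD gene was such a multiple. These distances count introns, and the step belongs to the grid of the list, so this is not read as a trait of SMAD3. The 3 peaks near the 3′ end held 513 of 754 peak bases (68.0%).

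SMAD2, the other TGF-β receptor SMAD, differed from SMAD3 in where its peaks lay along the RefSeq span, introns included. Whether the peaks of these genes also differ in exon or UTR position was not tested. It had 2 peaks (ENSG00000175387.16, chromosome 18, minus strand), with nearly equal −log10 scores of 47.2 and 49.1. The first had blocks of 225 bases (47896521 to 47896745) and 16 bases (47895710 to 47895725), beginning 34127 bases into the gene. The other had blocks of 74 bases (47844912 to 47844985) and 406 bases (47841545 to 47841950), and 32588 bases lay between its last base and the span end. Neither covered a RefSeq start, and none lay within 5000 bases of the span end, although 72.9% of 5306 listed minus-strand coding genes had a peak that ended that close. On the raw scale SMAD2 was far stronger than SMAD3, but 34.6% of listed genes on its strand were as strong as SMAD2, and 24.4% on the plus strand were as strong as SMAD3.

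Of the BMP receptor SMADs, SMAD1 and SMAD9 were listed and SMAD5 was not. SMAD1 (ENSG00000170365.10, chromosome 4, plus strand) had the weakest best peak of the listed members, and none of its 3 scores reached the median of the list (5.2e-08). Peak 1 (score 0.00026) had blocks of 23 bases (145481730 to 145481752) and 98 bases (145481853 to 145481950). The longer block began at one of 5 annotated starts of SMAD1. Peak 2 (145482786 to 145482846, score 0.0032) covered another start, at 145482805, and had a score that 94.9% of plus-strand peaks reached or passed. Peak 3 (145514637 to 145514876, score 4e-07) was the strongest, and lay 33867 bases into the gene. It shared bases with a 227-base peak of SMAD1-AS1, an antisense long non-coding RNA gene, from 145514643 to 145514869 on the minus strand. All 227 bases of the SMAD1-AS1 peak lay within the SMAD1 peak and both had the score 4e-07, so the list does not tell which transcript carried the signal. Such an overlap was found for 17.8% of plus-strand and 7.07% of minus-strand peaks, and for no other SMAD peak.

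SMAD9, which acts beside SMAD1 and SMAD5 downstream of BMP receptors, had the smallest score of the family. Its peak 1 (ENSG00000120693.13, chromosome 13, 36879414 to 36879714, minus strand) was 301 bases long with a score of 2e-62. Its other peak, 6571 bases further along the gene (36872663 to 36872842), was 180 bases long with a score of 4.2e-07. The scores of the SMAD9 peaks were thus 61.7 and 6.38 on the −log10 scale, the widest contrast within 1 SMAD gene. Both lay in the inner part of the gene, with midpoints at 54.3% and 63.3% of the span.

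SMAD6 (ENSG00000137834.15, chromosome 15, plus strand) was the strongest plus-strand member, and all 3 of its peaks were stronger than the list median. Peak 1 (66702236 to 66702595) began at the RefSeq start and was 360 bases long, with a score of 2.5e-14. Peak 2 (66703223 to 66703911) followed after 627 bases, was 689 bases long and had a score of 7.9e-59. Peak 3 (66781473 to 66781742) lay 1107 bases before the end of the span, was 270 bases long and had a score of 1e-36. Only 5.24% of plus-strand peaks were as strong as peak 2 and 2.0% as long. SMAD3 lies downstream of SMAD6 on the same strand of chromosome 15, and its strongest peak (−log10 score 13.9) was close to the weakest of SMAD6 (13.6).

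SMAD7 (ENSG00000101665.9, chromosome 18, minus strand) resembled SMAD6 in the layout of its peaks along the span. It had the most peak bases of the family, 1771, against 1319 for SMAD6. Peak 2 (48949925 to 48950554, 630 bases, score 7.9e-31) began 411 bases after the RefSeq start. Peak 3 (48921500 to 48921860, 361 bases, score 3.2e-37) ended 1647 bases before the end of the span. Peak 1, the longest of the 17 with 780 bases (48951213 to 48951992, score 5e-23), lay wholly upstream of the RefSeq span, at positions -1027 to -248 from its start. The list assigns it to SMAD7, and no other RefSeq gene spans it. No other SMAD peak lay wholly upstream. Such a peak was listed for 1.77% of 5306 minus-strand coding genes and 2.61% of 2870 plus-strand ones. Together the inhibitory SMADs had 6 peaks with 3090 bases, the TGF-β receptor SMADs 6 peaks with 1475 bases and the BMP receptor SMADs 5 peaks with 903 bases. On the plus strand, where 32.6% of all peaks were as strong as the list median, this held for 3 of 3 peaks of SMAD6, 1 of 4 of SMAD3 and 0 of 3 of SMAD1. On the minus strand, where it held for 56.7%, it did so for 3 of 3 peaks of SMAD7, 2 of 2 of SMAD2 and 1 of 2 of SMAD9.

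**Figure D2:**
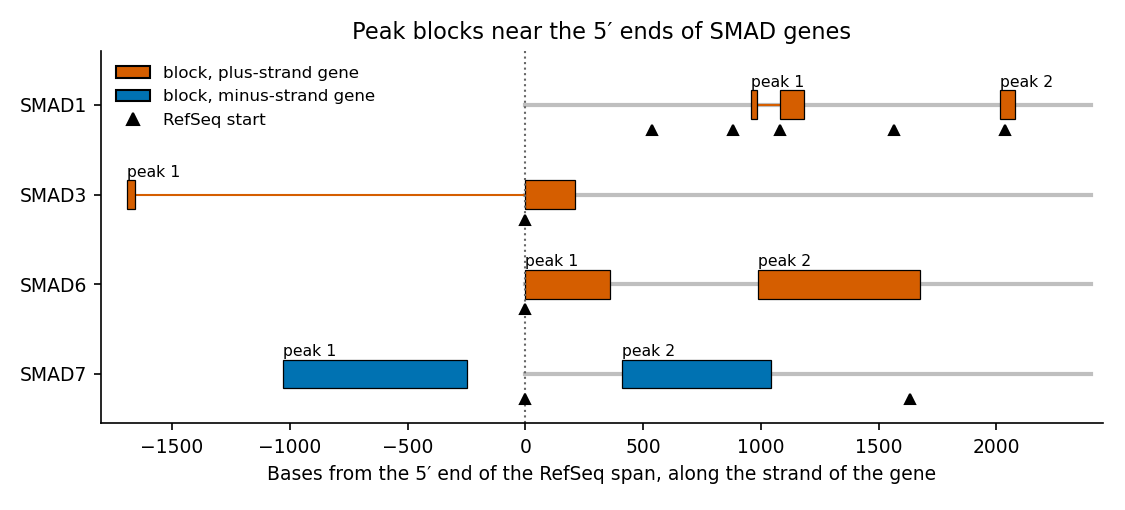
Blocks of SMAD1, SMAD3, SMAD6 and SMAD7 peaks near the 5′ end, in bases from the beginning of the RefSeq span (dotted line) along the strand of the gene; triangles mark RefSeq starts and thin colored lines join blocks of 1 peak. Blocks of SMAD3 and SMAD6 begin at position 0, and SMAD7 peak 1 lies wholly upstream, from -1027 to -248.

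A peak covered an annotated start in all 3 listed plus-strand SMAD genes and in none of the 3 minus-strand ones. In the list as a whole the order was the opposite, with a peak over a RefSeq start in 13.7% of 2369 listed plus-strand coding genes and 21.1% of 4310 minus-strand ones. Counting only the first base of the RefSeq span, 2 of 3 plus-strand members (SMAD3 and SMAD6) had a peak over it, against 10.2% of listed plus-strand coding genes, and none of the 3 minus-strand members did, against 16.6%. With 3 genes a strand this is a description only. SMAD1 had 5 annotated starts and SMAD3 also 5, of which 2 and 1 were covered, so the chance of covering one is not equal between genes. A peak ending within 5000 bases of the span end was listed for SMAD3, SMAD6 and SMAD7, that is 2 of 3 plus-strand and 1 of 3 minus-strand members, against 62.3% and 72.9% of listed coding genes.

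**Figure D3:**
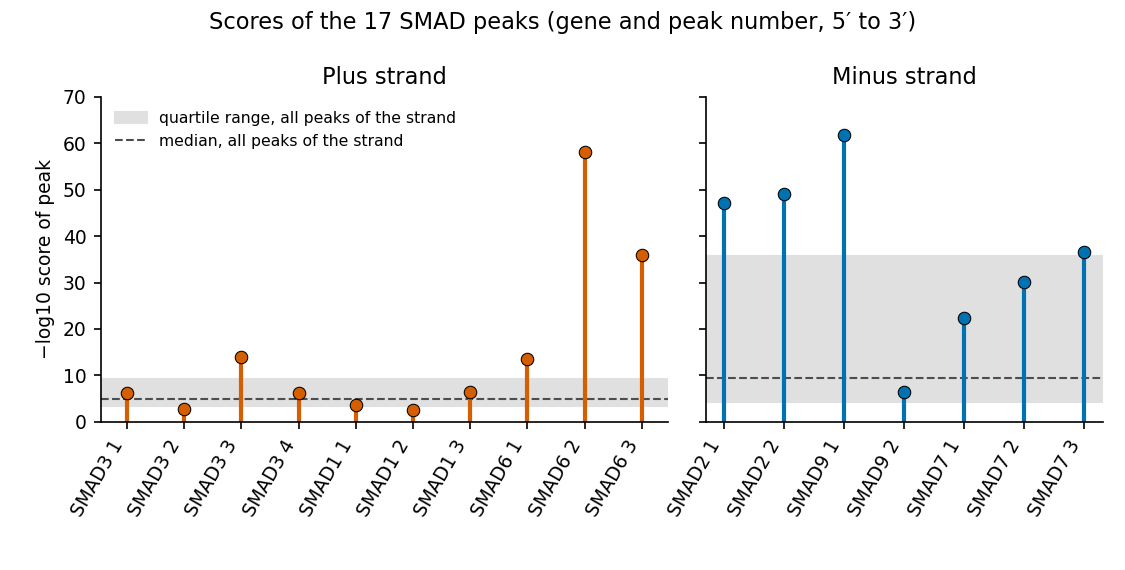
−log10 score (vertical axis, starting at 0) of each SMAD peak by strand, with peaks numbered 5′ to 3′ within each gene; the dashed line is the median and the grey band the quartile range of all peaks of that strand. SMAD6 peaks 2 and 3 stand well above the plus-strand band (scores 7.9e-59 and 1e-36), and SMAD9 peak 2 lies below the minus-strand median at 6.38.

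By strand, 4 of 10 plus-strand SMAD peaks (40.0%) and 6 of 7 minus-strand ones (85.7%) were as strong as the list median or stronger. The shares over all peaks were 32.6% and 56.7%. Counted by gene, 2 of 3 listed plus-strand members (SMAD3 and SMAD6) and all 3 minus-strand members had such a peak, against 42.1% and 70.7% of listed genes. The median score was 5e-07 over the plus-strand SMAD peaks, and 3.2e-37 over the minus-strand ones. Peaks of 1 gene share its reads and are not independent, and 3 of the 4 strong plus-strand peaks were from SMAD6.

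**Figure D4:**
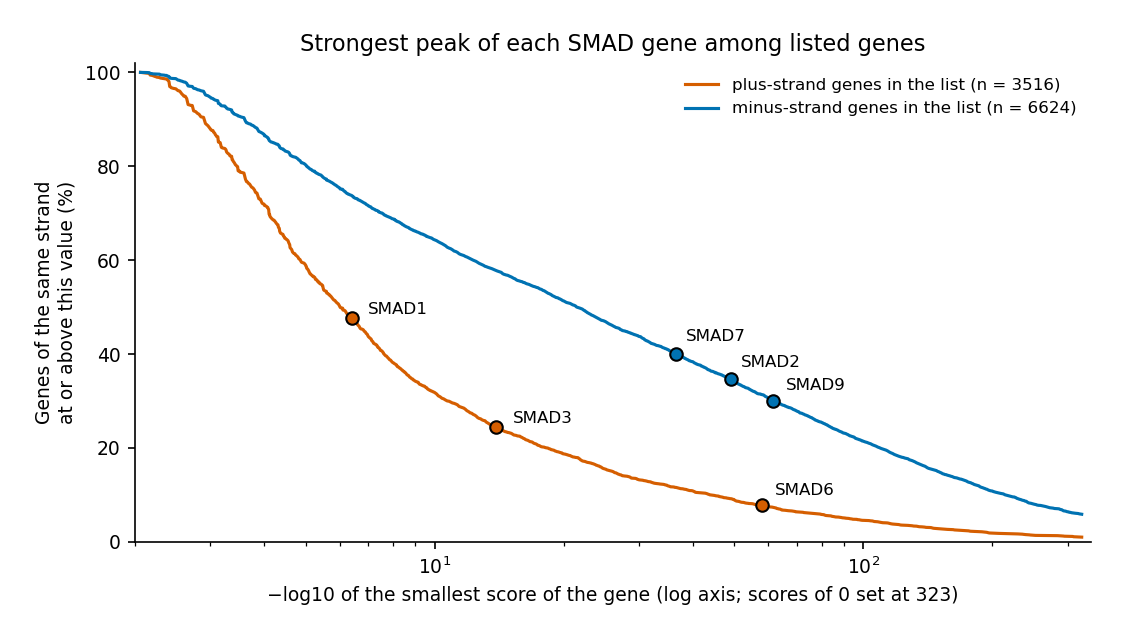
Percent of listed genes of each strand (vertical axis) whose strongest peak reached a given −log10 score (horizontal log axis), with the 6 SMAD genes marked on the curve of their strand. SMAD6 sits at 7.74% of plus-strand genes although its score is close to that of SMAD9, which sits at 30.1% of minus-strand genes.

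The order of the genes changed once the strand was taken into account. By the smallest score alone the order was SMAD9 (−log10 61.7), SMAD6 (58.1), SMAD2 (49.1), SMAD7 (36.5), SMAD3 (13.9) and SMAD1 (6.40). Within strands, the share of listed genes at least as strong was 7.74% for SMAD6, 24.4% for SMAD3, 30.1% for SMAD9, 34.6% for SMAD2, 40.1% for SMAD7 and 47.6% for SMAD1. SMAD3 thus moved from position 5 to position 2. Without replicate values, neighbors in either order cannot be said to differ. When peaks that shared bases with the opposite strand were left out, SMAD1 lost its strongest peak and its share became 75.7%, and those of SMAD6 and SMAD3 became 5.06% and 18.4%.

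The number and length of peaks gave a further comparison. As many peaks as SMAD3 (4) were listed for 5.26% of plus-strand genes, and as many as SMAD1 and SMAD6 (3) for 13.9%. As many as SMAD7 (3) were listed for 31.2% of minus-strand genes, and as many as SMAD2 and SMAD9 (2) for 58.1%. At least 2 peaks were listed for all 6 SMAD genes in the list, against 36.6% of genes on the plus and 58.1% on the minus strand. Summed peak length as great as that of SMAD6 was found in 2.10% of genes on its strand, and as great as that of SMAD7 in 7.76%. Corresponding values were 8.99% for SMAD3, 26.1% for SMAD1, 37.1% for SMAD2 and 52.8% for SMAD9. A longer transcript can hold more peaks, and transcript length was not taken into account.

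No peak of any gene was listed within the RefSeq spans of SMAD4 (chromosome 18, 51030213 to 51085042) or SMAD5 (chromosome 5, 136132845 to 136182733), both on the plus strand, nor for SMAD5-AS1, which overlaps the 5′ end of SMAD5. SMAD4 is the partner that all receptor SMADs share. A gene without a peak may be unmethylated, weakly expressed or below detection, and these cannot be told apart here.

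For context, 59 other genes of the TGF-β and BMP pathways were grouped by role. A peak was listed for 22 of 34 genes on the plus strand (64.7%) and 18 of 21 on the minus strand (85.7%), with the strand of 4 genes not given in the table used. Over all coding genes of known strand the shares were 29.3% and 55.6%. Of the listed pathway genes, 11 of 22 and 17 of 18 had a peak as strong as the list median, against 42.1% and 70.7% of all listed genes. The counts by role that follow pool both strands and are small, and stand beside 40.8% of all coding genes with a peak, so no role is set apart from another by them. Upstream of the SMADs, 10 of 11 ligand genes had a peak, and TGFB1 and BMP4 were listed at a score of 0. Of the type I receptor genes 2 of 7 had one, ACVR1 (1e-118) on the minus strand and ACVR1B (0.00068) on the plus strand, a share below that of all coding genes on so few genes that it is not read as a difference. TGFBR1, the type I receptor that phosphorylates SMAD2 and SMAD3, had none. Of the type II and co-receptors 4 of 7 had a peak, with ENG, which encodes the co-receptor endoglin, as the only one as strong as the list median (5e-22). TGFBR2, the type II receptor for TGF-β, had none. Both TGFBR1 and TGFBR2 lie on the plus strand, where 29.3% of coding genes had a peak. For them too, absence of methylation, weak expression and lack of detection cannot be told apart.

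Among regulators of SMAD proteins, 4 of 7 genes for ubiquitin ligases, a deubiquitinase and a phosphatase had a peak. The ubiquitin ligase genes SMURF1 (7.9e-29) and SMURF2 (1.6e-76) had peaks on the minus strand. STUB1, another ubiquitin ligase gene, was listed at 0 on the plus strand, and its peak overlapped one of the minus strand. The phosphatase gene PPM1A had a weak peak on the plus strand (0.00083), and NEDD4L, WWP1 and USP15 had none. Anchors and inhibitors were listed in 5 of 8 cases, the strongest being TOB1 (1e-253), an antiproliferative gene. Of the nuclear co-repressors and co-activators 8 of 9 had a peak, among them the acetyltransferase genes CREBBP (1e-220) and EP300 (6.3e-17) with 5 peaks each, and SKI (4.5e-08) and SKIL (6e-05), which repress SMAD-dependent transcription. Targets of the pathway were listed in 7 of 10 cases, with CCN2, a matricellular protein gene, at 0. For the SMAD genes themselves the count was 6 of 8, with none listed at 0.

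**Figure D5:**
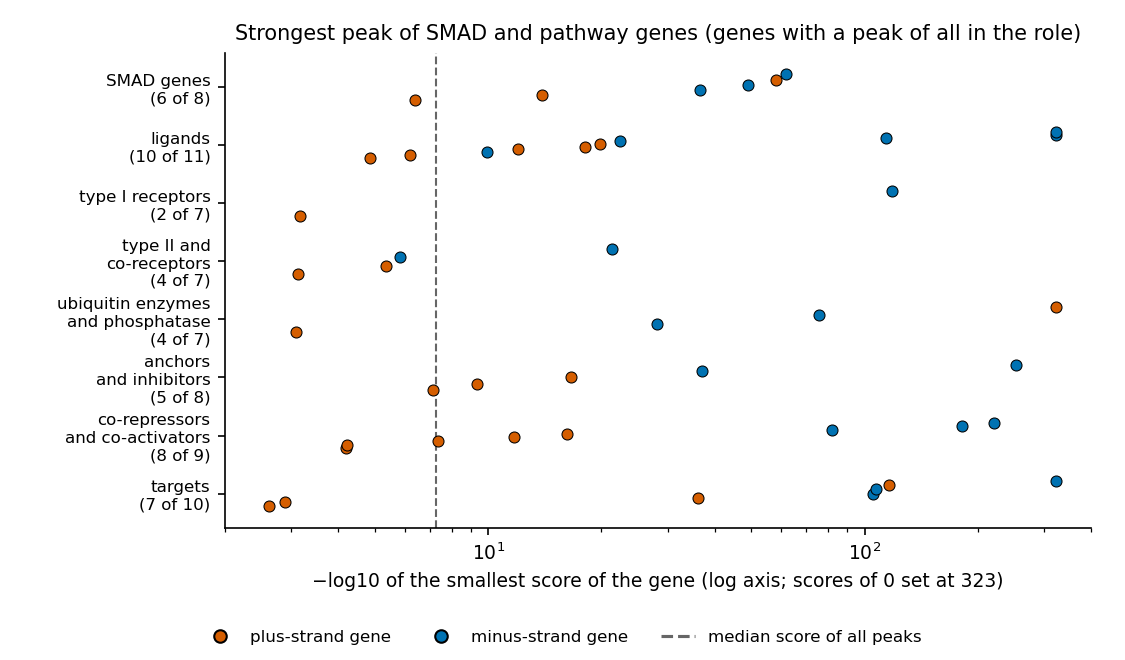
−log10 of the smallest score (horizontal log axis, scores of 0 set at 323) of each SMAD or pathway gene with a peak, by role and colored by strand; small vertical offsets only separate points, and the dashed line is the median score of all peaks. The 6 SMAD genes lie between 6.40 and 61.7, and the type I receptor row holds 2 of its 7 genes.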

How the data were processed

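m6A-seq libraries of MDA-MB-231 poly(A) RNA, 2 input and 2 IP, were grouped by their titles. Per the study's methods the authors mapped reads with STAR to GENCODE v33 annotations, called peaks with exomePeak (version 2.16, default parameters) and kept those passing an FDR of 0.05 and a fold enrichment of 1. The labels name hg38. The deposited score was used as the p-value of each peak, for all libraries combined, with scores of 0 ranked together at 323 on the −log10 scale.

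Coordinates are those of the deposited list, counted from 1. Ensembl IDs without their version were matched to symbols for 10103 of 10140 gene IDs. Gene spans came from RefSeq (GRCh38.p14) and strands and starts from its promoter table, which gave a strand for 15843 of 20056 coding genes. A start is the first transcribed base, and each promoter window holds 250 bases before it and 50 from it. Exon models were not used here. Blocks sharing at least 1 base were called overlapping. The share of same-strand genes is the percent of listed genes whose smallest score is at or under that of the member. Overlap, merging and ranking functions were tested on simulated peaks. Python 3.11.15 and pandas 2.3.3 were used. All 8 members were named, and pathway genes were named if strongest in their role, listed at 0 or without a peak. Exceptions were ACVR1B, EP300, PPM1A, SKI, SKIL, SMURF1 and SMURF2, which were chosen after their values were seen. The members and lists were chosen with earlier results of these data known. No test was made, since the list holds no replicate values.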

Additional observations from a re-analysis of the deposited data

How the results depend on the processing

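Among scores no larger than the list median, 10 of the 17 SMAD peaks and 5 of the 6 SMAD genes remained, SMAD1 being lost. Merging overlapping peaks of a gene, or leaving out the later of its 2 parts (the chromosome order starts anew once), left all 9 values tried within their limits, with 17 peaks in 6 genes. Without peaks that overlapped the opposite strand 16 peaks were left. DRACH in place of RRACH gave 4 sites in place of 3 in the reference bases available. The alternative for transcript models was not run, since it needs exon models. No paired analysis was possible because replicates were combined before peaks were listed, and for the same reason no replicate could be left out. The unknown depth limits what a missing peak shows.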
